A study of Homo sapiens with 6 samples.

Results

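Autophagy encloses cytoplasm in a double membrane, the autophagosome, and delivers it to the lysosome. The ULK1 kinase complex starts the process, the class III phosphatidylinositol 3-kinase (PI3K) complex marks the membrane with a phospholipid, and lipid carriers and 2 ubiquitin-like conjugation systems extend the membrane and attach ATG8 proteins to it. Selective receptors then tie a cargo, such as protein aggregates, endoplasmic reticulum (ER), mitochondria or glycogen, to the ATG8 proteins. Pancreatic ductal tumours are known for a high basal rate of autophagy.

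The 43 genes described here are core autophagy genes and selective autophagy receptors. They are listed by gene symbol, with no threshold on their values, in 8 roles, and the list was drawn up with earlier results of these data known. It includes CCPG1 and STBD1, which the study names from these samples. The study lists CCPG1 as significantly lower and STBD1 as significantly higher in mRNA, and the protein of both as higher but not significantly. The mRNA values of these genes here are thus not independent of their listing. All 43 were found, each under 1 identifier, among the 58825 genes of the expression table. All 43 passed the filter for testing (an average of 0.1 FPKM or more), and 40 averaged 1 FPKM or more. FPKM is the number of fragments per kilobase of transcript, scaled to the depth of the library, a level that can be compared between genes.

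PANC-1 is an established human cell line derived from a pancreatic ductal carcinoma, so every sample comes from 1 line. Maslinic acid (MA) is a plant triterpenoid found in olives. RNA-seq was performed on 3 samples of cells exposed to 40 μM MA for 24 h (MA PANC-1) and on 3 samples of cells left untreated (PANC-1). The labels call the control samples untreated, and the methods of the study name DMSO as what cells without MA received. The methods call the samples of a group biological replicates and state that experiments were run independently and in triplicate. How the cultures of a group were kept apart is not described further.

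The total estimated count of a library was 56978375, 63984133 and 58181114 for MA PANC-1 samples 1, 2 and 3, against 70275355, 65607669 and 59422939 for PANC-1 samples 1, 2 and 3. These totals exceed the valid reads that the study lists for each sample, so they were read as estimates. MA PANC-1 2 stood apart from the other libraries. On the first principal component, which held 26.4% of the variance, it lay at -73.6, against -29.5 and 16.2 for MA PANC-1 1 and 3 and 18.0 to 44.9 among the untreated libraries. GC content, averaged over its genes with their counts as weights, was 51.2%, against 49.8% to 50.3% in the other 5 libraries. Of the epithelial markers, KRT18 lay at 278 to 338 FPKM and KRT8 at 141 to 225 FPKM, whereas CDH1 lay at 0.778 to 1.28 FPKM, and KRT19 (at most 0.109 FPKM) and EPCAM (at most 0.132 FPKM) were near 0. Of the mesenchymal markers, VIM lay at 521 to 754 FPKM and CDH2 at 12.2 to 17.3 FPKM, whereas FN1 lay at 0.329 to 0.835 FPKM. Markers of blood and endothelial cells (PTPRC, CD3E, HBB, PECAM1, CDH5) reached at most 0.0275 FPKM. Of the fibroblast markers, LUM lay between 0.351 and 0.616 FPKM, while DCN (at most 0.0107 FPKM) and PDGFRB (at most 0.0738 FPKM) were near 0. The acinar genes PRSS1, CPA1 and AMY2A had no reads, and CELA3A had 1 count, in PANC-1 1.

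The question was which autophagy genes differed in mRNA level between MA PANC-1 and PANC-1. At an unadjusted p under 0.05 in edgeR's quasi-likelihood test, 6 of the 43 genes were higher in MA PANC-1 (ULK1, WIPI1, GABARAP, TOLLIP, TEX264 and PHB2), which is 14.0% of them. Over all 17774 genes tested the share was 5.37%, and over the 11470 genes averaging 1 FPKM or more it was 7.12%. Lower in MA PANC-1 were 5 genes (PIK3R4, ATG2B, NBR1, WDFY3 and CCPG1), or 11.6%, against 5.86% of all genes tested and 6.05% of those averaging 1 FPKM or more. The other 32 did not pass this threshold, which is what passing the test means throughout. The differences were small, from 0.20 to 0.37 on the log2 scale for the higher genes and from -0.25 to -0.46 for 4 of the lower ones, and CCPG1, at -1.05, was the exception.

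With p-values adjusted by Benjamini-Hochberg over all genes, none of the 43 passed 0.05 in edgeR, against 0.0394% (7 genes) of all genes tested, and the smallest adjusted p was 0.375, for CCPG1. DESeq2 gave 1 of the 43 an adjusted p under 0.05, again CCPG1 (adjusted p = 0.00695), against 1.8% of all genes to which it gave an adjusted p. Limma gave none of the 43, against 0.045% of all genes tested. Past the study's thresholds for a differentially expressed gene (DEG), 2-fold or more in either direction (a ratio of 2 or 0.5) with an unadjusted p under 0.05, was 1 of the 43, CCPG1, against 1.92% of all genes tested. The study had already called CCPG1 from these samples, so its passing is not independent of that call. The count of 6 higher genes became 0 when PANC-1 1 or PANC-1 3 was left out and 3 when MA PANC-1 1 or MA PANC-1 2 was left out, and the count of 5 lower genes became 2 without MA PANC-1 1, PANC-1 1 or PANC-1 2 and 3 without PANC-1 3. In bulk RNA, less RNA per cell and fewer cells holding it cannot be told apart.

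Taken by direction alone, 28 of the 43 genes had a log2 fold change above 0 and 15 below 0. Their median was 0.14, and the median over all genes tested was -0.0017. In 9 genes every MA PANC-1 sample was above every PANC-1 sample (20.9%, against 8.79% of all genes tested), and in 6 genes every one was below (14.0%, against 11.1%). An exact permutation test over 3 against 3 samples cannot give a two-sided p below 0.1, and it gave that value for each of these 15 genes.

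**Figure D1:**
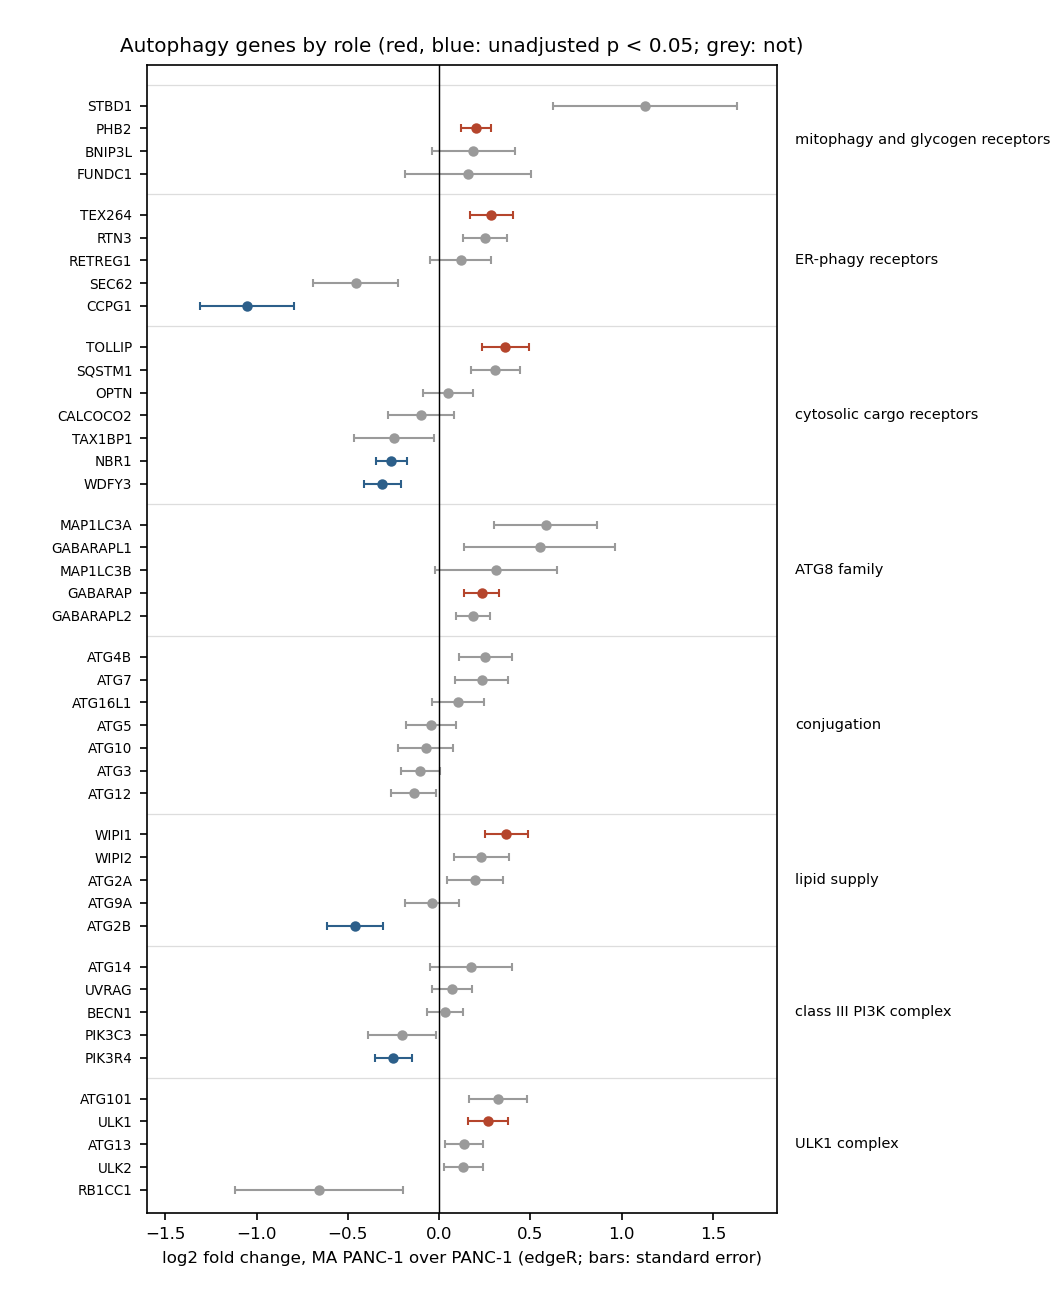
Log2 fold change of each of the 43 genes, MA PANC-1 over PANC-1, from edgeR (points) with its standard error (bars), sorted within the 8 roles. Red points are the 6 genes higher and blue points the 5 genes lower at an unadjusted p under 0.05, and CCPG1, at -1.05, lies furthest to the left.

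Beginning with initiation, 1 of the 5 genes of the ULK1 complex passed the test. ULK1 (chr12:131894622-131923150 in GRCh38, plus strand), the kinase that starts autophagosome formation, stood at 11.1, 11.1 and 9.59 FPKM in MA PANC-1 against 8.70, 9.47 and 8.94 FPKM in PANC-1 (samples 1, 2 and 3 of each group, in this order throughout). The lowest MA PANC-1 sample lay just above the highest PANC-1 sample. The log2 fold change of ULK1 was 0.27 (SE 0.11, adjusted p = 0.440), and without MA PANC-1 2 it was 0.20 and no longer passed.

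ATG101, which holds the complex together with ATG13, was its most abundant gene, at 35.8, 41.6 and 31.2 FPKM in MA PANC-1 against 28.4, 33.9 and 27.1 FPKM in PANC-1. Its groups overlapped, and the log2 fold change of 0.32 (SE 0.16, adjusted p = 0.481) became 0.16 without MA PANC-1 2. RB1CC1, the FIP200 scaffold, stood at 1.77, 0.570 and 2.73 FPKM in MA PANC-1 against 2.48, 2.62 and 2.98 FPKM in PANC-1. MA PANC-1 2 alone held a level far below the other 5 samples, and the log2 fold change of -0.66 (SE 0.46, adjusted p = 0.593) became -0.26 without it. ATG13 and ULK2, a kinase related to ULK1, had log2 fold changes of 0.14 and 0.13 and did not pass. Leaving out 1 sample gave 0.045 (without MA PANC-1 2) to 0.22 for ATG13 and 0.052 to 0.17 for ULK2.

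In the class III PI3K complex, PIK3R4 (chr3:130678934-130746829, minus strand), also known as VPS15 and the regulatory subunit of the lipid kinase, was the gene that passed. Its level was 4.72, 4.38 and 5.28 FPKM in MA PANC-1 against 5.96, 5.84 and 5.72 FPKM in PANC-1. All MA PANC-1 samples were below all PANC-1 samples, and the log2 fold change was -0.25 (SE 0.10, adjusted p = 0.439). BECN1, the scaffold of the complex and its most abundant gene, stood at 7.63, 6.48 and 6.99 FPKM in MA PANC-1 against 7.11, 6.70 and 7.33 FPKM in PANC-1. Its groups lay on top of each other, with a log2 fold change of 0.033 (SE 0.097, adjusted p = 0.919). The catalytic subunit PIK3C3 (log2 fold change -0.20), ATG14 (0.17), which directs the complex to autophagosomes, and UVRAG (0.070), its endosomal counterpart, did not pass either. PIK3C3 was at -0.049 without MA PANC-1 2. As 1 sample was left out, ATG14 ranged from -0.019 to 0.34 and UVRAG from 0.019 to 0.14.

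The promoters of ULK1 and PIK3R4 are shown because these genes sit at successive steps and passed the unadjusted threshold in opposite directions. Neither had an adjusted p under 0.05 in edgeR. The sequences are the 250 bases before each gene's start, from RefSeq (GRCh38.p14), on the strand of the gene at chr12:131894372-131894621 and chr3:130746830-130747079. Capitals mark the GC box GGGCGG, read on either strand, and neither stretch overlaps an annotated exon.
ULK1: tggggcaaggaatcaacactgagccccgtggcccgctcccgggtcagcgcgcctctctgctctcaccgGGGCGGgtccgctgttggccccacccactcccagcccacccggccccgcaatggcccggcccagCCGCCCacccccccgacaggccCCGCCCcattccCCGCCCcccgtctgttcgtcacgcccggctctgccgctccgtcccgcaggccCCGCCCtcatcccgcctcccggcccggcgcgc
PIK3R4: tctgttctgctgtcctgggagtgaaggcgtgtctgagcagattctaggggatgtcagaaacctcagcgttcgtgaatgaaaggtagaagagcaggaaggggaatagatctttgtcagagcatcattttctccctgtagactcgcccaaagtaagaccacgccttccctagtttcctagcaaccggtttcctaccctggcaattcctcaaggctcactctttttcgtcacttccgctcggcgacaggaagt
The ULK1 stretch held 5 GC boxes and was 78% G or C, whereas the PIK3R4 stretch held 0 and was 50.8% G or C.

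A promoter window of 300 bases (250 before and 50 after the start) was matched for 38 of the 43 genes, taking the one nearest to the gene start in the expression table. The GC box stood in 31 of these 38 genes (81.6%) and in 45.0% of all 35116 promoters, and it was present in all 6 higher genes and in 3 of the 4 lower genes that have a window. PIK3R4 was the lower gene without it, so the pair of promoters above does not stand for the higher and lower genes as sets. CACGTG, the core of the E-box bound by the lysosomal regulators TFEB and TFE3, stood in 2 of the 38 genes (ATG3 and ATG14) and in 7.26% of all promoters. Its longer form TCACGTGA, which contains CACGTG, was found in ATG3 alone (0.980% of all promoters). The letters TGACNNNGC, the core of the antioxidant response element, stood in 5 of the 38 (ATG101, CALCOCO2, MAP1LC3B, RTN3 and TOLLIP) and in 13.3% of all promoters. CCAAT was found in 10 of the 38 and in 34.6% of all promoters. Both strands were searched, and a match says only that the letters are in the window. All promoters were counted whether or not their gene was expressed, and a gene can have several there. The 43 genes all passed the expression filter, and 1 of their 48 windows was taken per gene, so the shares are not like for like.

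Of the 5 genes that bring lipid to the growing membrane, 1 was higher, 1 lower and 3 did not pass. WIPI1 (chr17:68420948-68457499, minus strand), which binds the phospholipid made by the PI3K complex, stood at 7.57, 7.44 and 7.88 FPKM in MA PANC-1 against 5.89, 6.72 and 5.57 FPKM in PANC-1. The groups did not overlap, and the spread within MA PANC-1 was narrow. Its log2 fold change was 0.37 (SE 0.12, adjusted p = 0.414), the highest of the 6 higher genes, and 0.35, still past the threshold, without MA PANC-1 2.

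ATG2B (chr14:96279195-96363341, minus strand), a bridge-like lipid transfer protein, had the lowest level of the 43 genes, at 0.394, 0.420 and 0.431 FPKM in MA PANC-1 against 0.639, 0.559 and 0.565 FPKM in PANC-1. All MA PANC-1 samples were below all PANC-1 samples. The log2 fold change was -0.46 (SE 0.16, adjusted p = 0.426), and without MA PANC-1 2 it was -0.51. Its paralog ATG2A had a log2 fold change of 0.19, or 0.047 without MA PANC-1 2, and did not pass.

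ATG9A, the lipid scramblase of the vesicles that seed the membrane, was the most abundant gene of this role, at 19.7, 25.6 and 19.5 FPKM in MA PANC-1 against 21.7, 23.6 and 23.2 FPKM in PANC-1. MA PANC-1 2 was the highest of the 6 samples while MA PANC-1 1 and 3 were the lowest, and the log2 fold change of -0.039 (adjusted p = 0.939) became -0.23 without MA PANC-1 2, where it passed.

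None of the 7 conjugation genes passed the test. Their log2 fold changes ran from -0.14 for the ubiquitin-like protein ATG12 to 0.25 for the protease ATG4B, which trims the ATG8 proteins. ATG4B was the one gene of the role whose groups did not overlap, and its log2 fold change became 0.089 without MA PANC-1 2. ATG5, the acceptor of ATG12 and the most abundant of the role, stood at 8.04, 6.42 and 9.68 FPKM in MA PANC-1 against 8.48, 8.07 and 8.87 FPKM in PANC-1, with a log2 fold change of -0.045 (adjusted p = 0.920). The activating enzyme ATG7 (log2 fold change 0.23, or 0.11 without MA PANC-1 2), the conjugating enzymes ATG3 (-0.10) and ATG10 (-0.074) and the scaffold ATG16L1 (0.10) had overlapping groups.

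All 5 genes of the ATG8 family, whose products coat the membrane and bind the receptors, had log2 fold changes above 0, and 1 passed. GABARAP (chr17:7240008-7242449, minus strand), the most abundant, stood at 62.0, 61.0 and 55.6 FPKM in MA PANC-1 against 49.8, 52.8 and 53.5 FPKM in PANC-1. The groups did not overlap, although MA PANC-1 3 was close to PANC-1 3. Its log2 fold change was 0.23 (SE 0.096, adjusted p = 0.441), and without MA PANC-1 2 it was 0.17 and no longer passed. GABARAPL2 stood at 17.3, 17.2 and 18.0 FPKM in MA PANC-1 against 16.4, 15.9 and 15.1 FPKM in PANC-1. These groups did not overlap either, and the log2 fold change of 0.18 (SE 0.092, adjusted p = 0.485) did not pass.

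The other members of the family varied widely within a group. MAP1LC3B, the LC3 protein most used as an autophagosome marker, stood at 35.6, 29.4 and 19.4 FPKM in MA PANC-1 against 24.9, 31.3 and 13.6 FPKM in PANC-1, a span of 2.30 times among the untreated samples. MAP1LC3A stood at 10.4, 22.0 and 16.7 FPKM in MA PANC-1 against 12.0, 11.8 and 10.1 FPKM in PANC-1, and GABARAPL1 stood at 18.6, 14.8 and 13.6 FPKM in MA PANC-1 against 4.39, 15.3 and 13.1 FPKM in PANC-1. In all of these the groups overlapped. The log2 fold changes were 0.31 (SE 0.33, adjusted p = 0.732) for MAP1LC3B, 0.58 (SE 0.28, adjusted p = 0.475) for MAP1LC3A and 0.55 (SE 0.41, adjusted p = 0.618) for GABARAPL1. Leaving out 1 sample moved each of them widely, to 0.038 for MAP1LC3B without PANC-1 3, to 0.26 for MAP1LC3A without MA PANC-1 2 and to 0.17 for GABARAPL1 without PANC-1 1, and at the other end to 0.59, 0.84 and 0.88. Of near-identical copies, MAP1LC3B2 had 280 to 370 counts per sample and GABARAPL3 had 0 in every sample.

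Summed over the family, the level was 144, 144 and 123 FPKM in MA PANC-1 against 108, 127 and 105 FPKM in PANC-1. MA PANC-1 3 lay below PANC-1 2, so the sums overlapped. GABARAP alone made up from 41.5% to 50.8% of the sum.

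**Figure D2:**
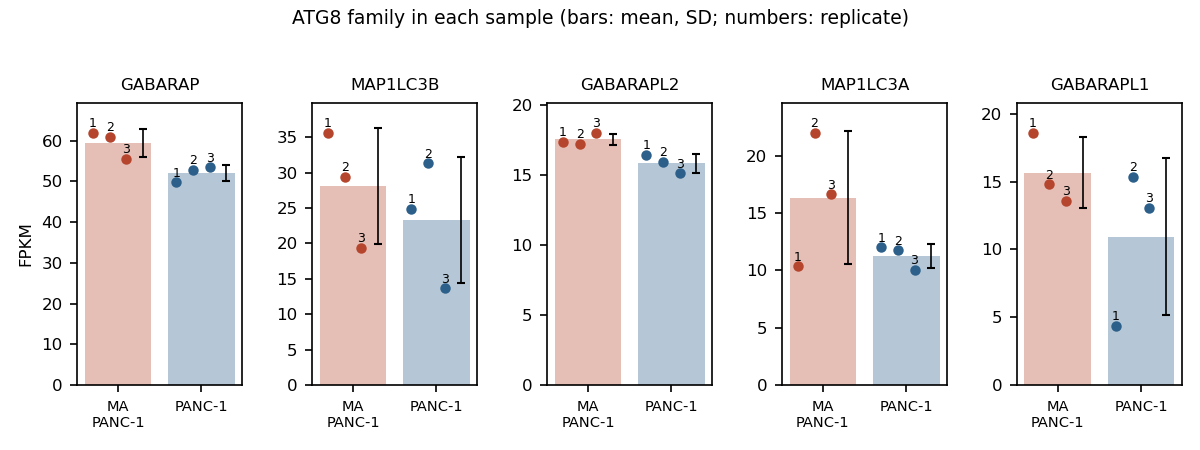
FPKM of the 5 ATG8 genes in each sample (points, numbered by replicate), with the group mean (bars) and SD (lines, n = 3). GABARAP and GABARAPL2 separate the groups by a small margin, and MAP1LC3B, MAP1LC3A and GABARAPL1 overlap.

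Among the receptors for cytosolic cargo, SQSTM1 (chr5:179806398-179838078, plus strand), also known as p62 and the receptor of ubiquitinated aggregates, was the most abundant of all 43 genes. It stood at 266, 280 and 231 FPKM in MA PANC-1 against 224, 235 and 187 FPKM in PANC-1 and made up 26.5% to 32.9% of the summed FPKM of the 43 genes. MA PANC-1 3 lay below PANC-1 2, and the log2 fold change of 0.31 (SE 0.14, adjusted p = 0.456) did not pass and became 0.21 without MA PANC-1 2. NBR1 (chr17:43170481-43211689, plus strand), a receptor of similar design that works with SQSTM1, stood at 8.65, 7.27 and 8.34 FPKM in MA PANC-1 against 10.2, 9.92 and 9.69 FPKM in PANC-1. Every MA PANC-1 sample was below every PANC-1 sample, with a log2 fold change of -0.26 (SE 0.087, adjusted p = 0.419), and it was -0.23 and still passed without MA PANC-1 2.

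TOLLIP (chr11:1274371-1309654, minus strand), an adaptor that also carries ubiquitinated cargo, stood at 15.9, 18.4 and 14.5 FPKM in MA PANC-1 against 12.9, 13.1 and 13.1 FPKM in PANC-1. The PANC-1 samples were nearly equal and all below the MA PANC-1 samples. The log2 fold change was 0.36 (SE 0.13, adjusted p = 0.429), and without MA PANC-1 2 it was 0.22 and still passed. WDFY3 (chr4:84669610-84966391, minus strand), also called ALFY, a large scaffold for aggregate clearance, stood at 1.71, 1.81 and 1.80 FPKM in MA PANC-1 against 2.21, 2.28 and 2.27 FPKM in PANC-1. Both groups were tight and well apart, with a log2 fold change of -0.31 (SE 0.10, adjusted p = 0.414).

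OPTN (log2 fold change 0.048), CALCOCO2 (-0.10) and TAX1BP1 (-0.25), receptors of ubiquitinated mitochondria, bacteria and aggregates, did not pass. TAX1BP1 had 1 low sample, MA PANC-1 2, at 7.28 FPKM, while the other 5 lay between 13.2 and 15.2 FPKM, and without that sample its log2 fold change was -0.022.

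The ER-phagy receptors held the gene with the smallest p. CCPG1 (chr15:55340032-55408510, minus strand), an ER-resident receptor that binds the ATG8 proteins and FIP200, stood at 1.82, 0.832 and 1.58 FPKM in MA PANC-1 against 2.88, 3.30 and 2.75 FPKM in PANC-1. Every MA PANC-1 sample was below every PANC-1 sample, and MA PANC-1 2 was the lowest. The log2 fold change was -1.05 (SE 0.26, adjusted p = 0.375 by edgeR's quasi-likelihood test). Without MA PANC-1 2 it was -0.81 and without PANC-1 2 it was -0.97, both under a 2-fold difference, and leaving out any other sample gave -1.08 to -1.26. Its unadjusted p stayed under 0.05 in all 17 alternative settings. The read-through gene DNAAF4-CCPG1, which shares exons with CCPG1, had 0 counts in every sample. PIGB lies on the opposite strand over one end of CCPG1, and the strand used in counting was not given in the sources used here.

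TEX264 (chr3:51662693-51704323, plus strand), a receptor of ER tubules and 3-way junctions, stood at 14.0, 16.1 and 13.5 FPKM in MA PANC-1 against 13.1, 11.8 and 11.9 FPKM in PANC-1. The groups did not overlap, and the log2 fold change was 0.29 (SE 0.12, adjusted p = 0.442). TEX264 shares its strand and part of its span with RAD54L2, which had 2365, 2530 and 2430 counts in MA PANC-1 against 2253, 2180 and 802 in PANC-1. Counted together, the log2 fold change of the pair was 0.39 and passed.

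RTN3, which shapes and fragments ER tubules, was the most abundant ER-phagy gene, at 34.7, 33.4 and 36.0 FPKM in MA PANC-1 against 24.8, 33.2 and 31.6 FPKM in PANC-1. The groups were separated by a narrow gap between MA PANC-1 2 and PANC-1 2 (log2 fold change 0.25, SE 0.12, adjusted p = 0.479), and without PANC-1 1 the log2 fold change was 0.13. SEC62, a translocation component that also acts in recovery from ER stress, was below PANC-1 in every MA PANC-1 sample (log2 fold change -0.46, adjusted p = 0.489), again with MA PANC-1 2 the lowest, at 2.84 FPKM, and its log2 fold change was -0.22 without that sample. RETREG1, also called FAM134B, had a log2 fold change of 0.12 and did not pass.

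PHB2 (chr12:6965327-6970825, minus strand), a prohibitin of the inner mitochondrial membrane that binds LC3, was the most abundant of the mitophagy and glycogen receptors. It stood at 91.6, 93.9 and 95.4 FPKM in MA PANC-1 against 83.3, 80.0 and 87.3 FPKM in PANC-1. The groups did not overlap, and the log2 fold change of 0.20 (SE 0.081, adjusted p = 0.439) was the smallest of those that passed. FUNDC1 and BNIP3L, receptors in the outer mitochondrial membrane, spanned 2.03 and 1.83 times among the untreated samples, and their log2 fold changes of 0.16 and 0.19 did not pass, ranging from -0.070 to 0.57 and from -0.020 to 0.39 as 1 sample was left out.

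STBD1 (chr4:76306026-76311599, plus strand), which binds glycogen and carries it to the lysosome, had the largest log2 fold change above 0, at 1.13 (SE 0.50), and did not pass (adjusted p = 0.462 by edgeR). The study, by contrast, lists STBD1 mRNA as significantly higher. Its levels were 8.03, 5.90 and 7.48 FPKM in MA PANC-1 against 1.80, 6.41 and 1.75 FPKM in PANC-1. PANC-1 2 lay within the range of MA PANC-1, and PANC-1 1 and 3 were far below. The read-through gene FAM47E-STBD1 lies on the same strand and shares 1986 of the 3420 exon bases of STBD1 in GENCODE 29. It had 0, 23 and 72 counts in MA PANC-1 against 1407, 0 and 1300 in PANC-1, so that it held 73.1% and 75.4% of the joint count in PANC-1 1 and 3 and 0% in PANC-1 2.

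Counted together, STBD1 and FAM47E-STBD1 had 1860, 1565 and 1851 counts in MA PANC-1 against 1925, 1720 and 1725 in PANC-1. These sums overlapped, and their log2 fold change of 0.13 did not pass. The split of counts between these genes thus differed between PANC-1 2 and the other PANC-1 samples. The call on STBD1 alone also depended on 1 library: without PANC-1 2 the log2 fold change was 2.03 and passed, and without PANC-1 1 or PANC-1 3 it was 0.83 or 0.82 and did not.

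**Figure D3:**
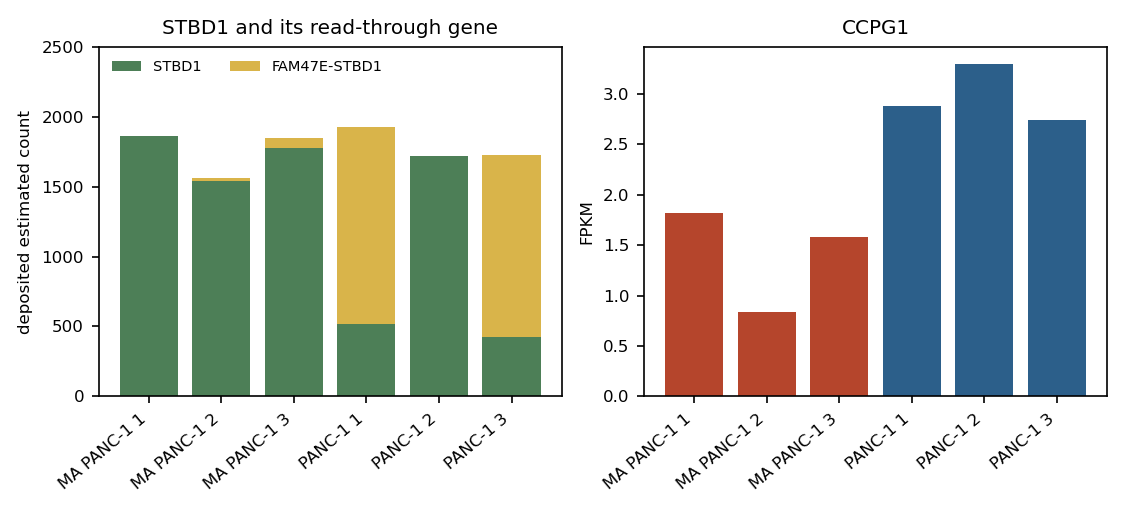
Left, deposited estimated counts of STBD1 and of its read-through gene FAM47E-STBD1, stacked, in each sample. The stacked height is alike in all samples (1565 to 1925) while the share of FAM47E-STBD1 is high in PANC-1 1 and 3. Right, FPKM of CCPG1 in each sample, with the 3 MA PANC-1 samples (red) below the 3 PANC-1 samples (blue).

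Across the 43 genes the samples of a group were not alike. MA PANC-1 2 was the lowest of its group in 21 genes, against 8 for MA PANC-1 1 and 14 for MA PANC-1 3. The highest of the group was MA PANC-1 1 in 10 genes, MA PANC-1 2 in 13 and MA PANC-1 3 in 20. Among the untreated samples, PANC-1 1, 2 and 3 were the lowest in 16, 11 and 16 genes and the highest in 15, 17 and 11. Summed over the 43 genes the level was 838, 851 and 788 FPKM in MA PANC-1 against 716, 771 and 704 FPKM in PANC-1, so the groups did not overlap in the sum. As a share of all counts the 43 genes held 0.560%, 0.562% and 0.516% against 0.488%, 0.523% and 0.461%, and there MA PANC-1 3 lay below PANC-1 2. Without SQSTM1 the sums of FPKM were 572, 571 and 557 FPKM against 492, 536 and 517 FPKM.

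Most calls did not hold in every fit with 1 sample fewer, and such fits also have less power. CCPG1 passed whichever sample was left out. WIPI1 did not pass without PANC-1 1 (log2 fold change 0.34) or PANC-1 3 (0.31), NBR1 did not without PANC-1 1 (-0.25) or PANC-1 2 (-0.26), and ATG2B did not without MA PANC-1 1 (-0.41) or PANC-1 1 (-0.40). TOLLIP did not pass without any 1 of the PANC-1 samples (0.35 to 0.36), WDFY3 did not without MA PANC-1 1 (-0.27), PANC-1 2 (-0.30) or PANC-1 3 (-0.31), and PIK3R4 did not without MA PANC-1 1 (-0.23) or any 1 of the PANC-1 samples (-0.24 to -0.27). ULK1, GABARAP and TEX264 passed when MA PANC-1 3 was left out and in none of the other 5 cases (0.20 to 0.30, 0.17 to 0.25 and 0.16 to 0.33), and PHB2 passed when MA PANC-1 2 was left out and in none of the other 5 (0.17 to 0.23). Conversely, ATG101 and SQSTM1 passed without MA PANC-1 3 (0.44 and 0.40) or PANC-1 2 (0.42 and 0.38), RTN3 without PANC-1 2 (0.33), MAP1LC3A without MA PANC-1 1 (0.84), and RB1CC1 (-1.17), SEC62 (-0.65) and ATG7 (0.35) without MA PANC-1 3. Without MA PANC-1 2 the log2 fold changes of ATG101, SQSTM1, MAP1LC3A, RB1CC1, SEC62 and ATG7 were each closer to 0 than with all samples (0.16, 0.21, 0.26, -0.26, -0.22 and 0.11), and none of them passed.

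**Figure D4:**
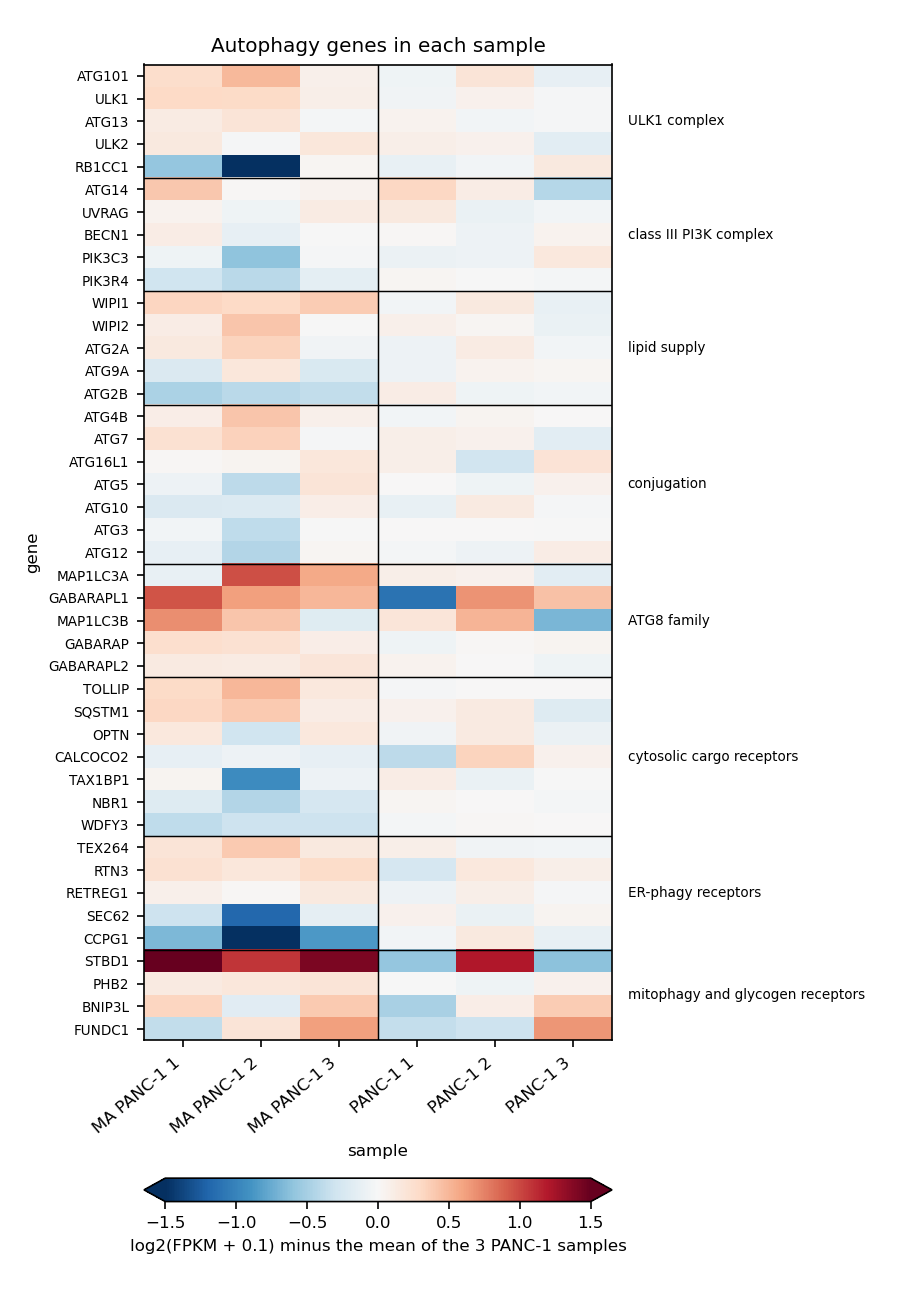
Log2(FPKM + 0.1) of each of the 43 genes in each of the 6 samples, as the difference from the mean of the 3 PANC-1 samples (red above, blue below, colours saturating at 1.5). STBD1 is high in 4 samples and low in PANC-1 1 and 3, and RB1CC1, TAX1BP1, SEC62 and CCPG1 are lowest in MA PANC-1 2.

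Base composition moved with these differences. The longest transcripts of the 6 higher genes had a median GC content of 55.8% (49.4% to 64.2%), those of the 5 lower genes 43.9% (38.2% to 44.9%) and those of the other 32 genes 45.8%. They also differed in length, with a median of 2776 bases for the higher genes and 6822 bases for the lower. Spearman's rho between log2 fold change and GC over the 43 genes was 0.68, and over the 17721 genes tested with a GC value it was 0.35. The points share the same 6 libraries and the values are given as a description.

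Each MA PANC-1 sample set against the PANC-1 mean gave a rho over the 43 genes of 0.48, 0.77 and 0.090 for MA PANC-1 1, 2 and 3. Without MA PANC-1 2 the rho of the group difference was 0.41, and it was 0.24 once each library's trend with GC had been removed. Over the 17721 genes tested with a GC value, the rho was 0.21, 0.52 and -0.019 for MA PANC-1 1, 2 and 3. For the group difference it was 0.12 over those genes without MA PANC-1 2 and -0.0063 with the GC trend removed. The trend was fitted on these same GC values, so a fall in rho after its removal is largely built in. The removal would also take out a difference between the groups that goes with GC. After that removal WIPI1 (log2 fold change 0.33), TOLLIP (0.23), NBR1 (-0.21), ATG2B (-0.38) and CCPG1 (-0.87) were still past an unadjusted p of 0.05, as were GABARAP (0.19) and TEX264 (0.17). ULK1 (0.12), PHB2 (0.081), PIK3R4 (-0.17) and WDFY3 (-0.22) were not. Newly past it were RTN3 (0.37), GABARAPL2 (0.32) and ATG9A (-0.19), so the count of higher genes was again 6, with 4 of the same genes. The part of base composition in the group difference was not tested beyond these values.

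**Figure D5:**
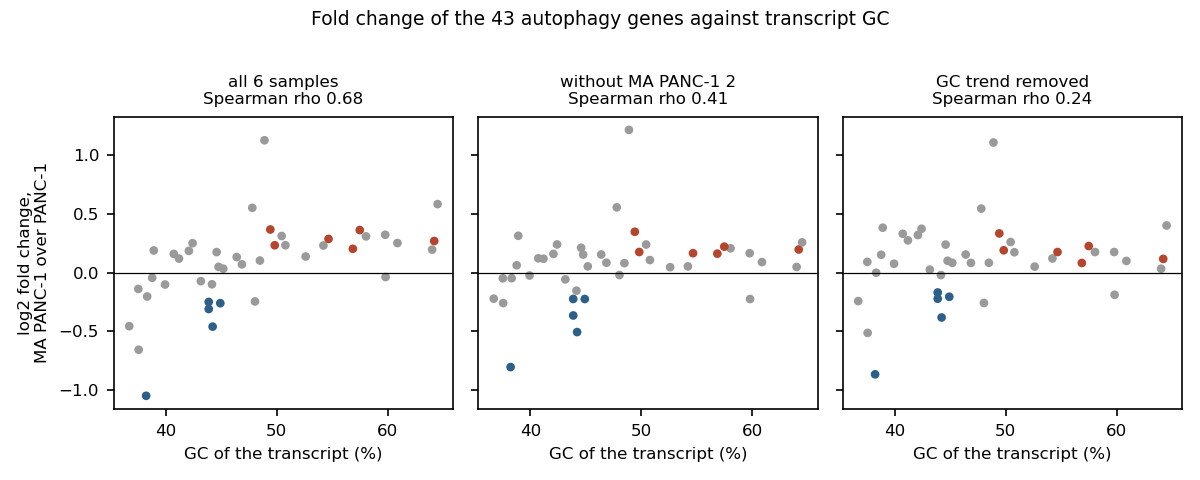
Log2 fold change of the 43 genes (vertical axis) against the GC content of the longest transcript in percent (horizontal axis), in all 6 samples, without MA PANC-1 2 and with each library's GC trend removed. Red and blue mark the 6 higher and 5 lower genes of the left panel. Spearman's rho is 0.68, 0.41 and 0.24, the last after a removal that was itself fitted on GC.

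A further 57 autophagy genes outside the 43 were read for context, of which 55 were tested. Of these, 10 were higher (18.2%, against 5.37% of all genes tested) and 2 lower (3.64%, against 5.86%) at an unadjusted p under 0.05. Over all genes averaging 1 FPKM or more, as 51 of the 55 did, the shares were 7.12% and 6.05%. None passed the DEG thresholds, against 1.92% of all genes tested, and none had an adjusted p under 0.05 in edgeR, the smallest being 0.388. The count of 12 became 5 without PANC-1 1 and 4 without PANC-1 3. Their median log2 fold change was 0.14. By role, 4 of the 14 genes of fusion with the lysosome and 4 of the 13 tested genes of membrane supply and conjugation were higher, as were 2 of the 13 tested further receptors, and both lower genes were among the 15 initiation genes and regulators.

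VPS16, a core subunit of the tethering complexes HOPS and CORVET, stood at 24.3, 27.4 and 23.0 FPKM in MA PANC-1 against 18.5, 20.3 and 17.7 FPKM in PANC-1, without overlap. Its log2 fold change was 0.45 (SE 0.12, adjusted p = 0.388), and 0.23, still past the threshold, when counted together with PTPRA, which overlaps it on the same strand. YKT6, a SNARE of autophagosome fusion, stood at 76.0, 85.3 and 71.1 FPKM in MA PANC-1 against 61.6, 65.2 and 62.0 FPKM in PANC-1. Its log2 fold change was 0.34 (SE 0.11, adjusted p = 0.421), and 0.22, still past the threshold, without MA PANC-1 2. Both fusion genes thus stood above PANC-1 in every MA PANC-1 sample.

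Of the 2 related stress-induced genes whose products bind ATG8 proteins, TP53INP1 stood at 0.694, 0.698 and 0.861 FPKM in MA PANC-1 against 0.438, 0.385 and 0.541 FPKM in PANC-1. Its log2 fold change of 0.76 (SE 0.21, adjusted p = 0.388) was the largest among the 12 that passed. TP53INP2 stood at 8.34, 9.59 and 10.3 FPKM in MA PANC-1 against 6.88, 7.44 and 7.25 FPKM in PANC-1 (log2 fold change 0.43, SE 0.12, adjusted p = 0.388). ZFYVE1, the marker of the ER sites where autophagosomes form, had a log2 fold change of 0.41 (SE 0.13, adjusted p = 0.414). In all 3 the groups did not overlap.

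Lower were AKT1S1, an inhibitory subunit of the mTORC1 kinase complex that restrains autophagy, and PRKAA1, a catalytic subunit of the energy sensor AMPK. AKT1S1 stood at 15.7, 13.6 and 16.7 FPKM in MA PANC-1 against 19.3, 19.2 and 18.9 FPKM in PANC-1, without overlap (log2 fold change -0.29, SE 0.085, adjusted p = 0.388). PRKAA1 stood at 9.03, 6.44 and 10.7 FPKM in MA PANC-1 against 12.3, 10.3 and 12.9 FPKM in PANC-1. Its groups overlapped (log2 fold change -0.41, SE 0.17, adjusted p = 0.442). VPS16, TP53INP1, TP53INP2 and AKT1S1 passed whichever sample was left out, whereas ZFYVE1 did not without PANC-1 3 (0.37), YKT6 did not without PANC-1 1 (0.32) or PANC-1 3 (0.33), and PRKAA1 did not without MA PANC-1 1, MA PANC-1 2, PANC-1 1 or PANC-1 3 (-0.42, -0.26, -0.38 and -0.35). With the GC trend removed PRKAA1 was at -0.14 and did not pass, and the other 6 genes named here still passed.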

How the data were processed

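Per the submitters' processing notes, reads were handled with cutadapt 1.9, HISAT2 2.0.4 and StringTie 1.3.4d, and edgeR and DESeq2 are named without a version. The authors deposited an FPKM value per gene and sample, with 0.0001 listed for a gene without reads. They also deposited an estimated count in whole numbers, without normalization. The genome build is not given in the sources used here; 47583 of 58552 gene positions, but 21 of those of the 43 genes, equal the positions in GENCODE 29 (GRCh38), so another release may lie behind the table.

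The 17774 genes averaging 0.1 FPKM or more in the 6 samples were tested on the counts by edgeR 4.0.16 (quasi-likelihood, TMM, R 4.3.3) with Benjamini-Hochberg adjustment. GC content and length were taken from the longest GENCODE 29 transcript and may differ from the gene models counted. The tests were tested on simulated data. Those data held no trend with GC and no library that stood apart, unlike the samples here.

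The genes, roles, lists and tests were chosen with earlier results of these data known. Values in every sample are given for CCPG1 and STBD1, which the study names, for genes with an unadjusted p under 0.05, for the most abundant gene of each role, for the ATG8 family and for the 2 largest log2 fold changes in each direction. Of the 57 other genes, at most 5 per direction are given, by p. TAX1BP1 and SEC62 were added after their values were seen.

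Alternatives were DESeq2 1.42.0, limma 3.58.1 on log2(FPKM + 0.1) or log2(FPKM + 1), other normalizations, halved counts (since the deposited counts exceed the listed reads), another filter or none, the replicate number as a block, overlapping genes summed, and each sample left out. Removing each library's GC trend was chosen after seeing the data. Another marker gene is not reported here.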

Additional observations from a re-analysis of the deposited data

How the results depend on the processing

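Of the 11 genes that passed, CCPG1 kept an unadjusted p under 0.05 in 17 of 17 alternatives, WIPI1 and NBR1 in 15, TOLLIP in 14, WDFY3 in 13, ATG2B in 12 of 16, PIK3R4 in 10, ULK1, GABARAP and TEX264 in 6 each and PHB2 in 4, and none changed direction. The count of higher genes (6) became 3 with DESeq2, 3 when scaled by the library total alone and 2 with a filter at a mean FPKM of at least 1. The count past the DEG thresholds (1) became 0 once the GC trend was removed and 2 under limma with a pseudocount of 0.1, without a filter and with the replicate block, STBD1 being the second gene. Under limma with a pseudocount of 1 and without PANC-1 2 the count stayed at 1 but the gene was STBD1, not CCPG1. The count of other autophagy genes (12) became 7 under limma with either pseudocount. Leaving out 1 sample at a time gave 0 to 8 higher genes, 2 to 7 lower genes, 0 to 2 past the DEG thresholds (0 without MA PANC-1 2) and 4 to 16 other autophagy genes. The log2 fold change of BECN1 changed sign under the library total (-0.0032) and limma with a pseudocount of 0.1 (-0.0049) or 1 (-0.0041), ranging from -0.015 to 0.059 over the samples left out. That of ATG5 became 0.15 with the GC trend removed and ranged from -0.18 to 0.062, and that of ATG9A from -0.23 to 0.052. The causes were not tested. Same-numbered samples of the groups deviated together only weakly (correlations 0.029, 0.050 and 0.072), though each sample correlated best with its own number and all other pairings gave negative correlations. The study describes no pairing, and the numbers were not taken as pairs in the main fit. A link between same-numbered samples is not excluded by this. The block moved the higher count to 7 and left the lower count at 5, keeping 7 of the 11 genes: GABARAP, TEX264, PHB2 and PIK3R4 no longer passed, while ATG101, SQSTM1, MAP1LC3B, STBD1 and SEC62 did. Halving the counts, or RLE factors, changed no call among the 11 genes. With 3 samples a group, the biological coefficient of variation over all genes was 0.308.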
